A study of Homo sapiens with 6 samples.

Results

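The 10 genes described here are regulators and markers of the epithelial-mesenchymal transition (EMT). They were taken from the gene count table by name and comprise the transcription factors ZEB1, ZEB2, SNAI1, SNAI2 and TWIST1, the mesenchymal markers VIM, CDH2 and FN1, and the epithelial markers CDH1 and EPCAM. Of the 10 genes, 9 were among the 21494 genes of the table, and 8 of these had enough counts to be tested among 16756 genes. ZEB2 has no row in the table and was not analysed here, and ZEB1 had too few counts for the test. RNA-seq was performed on 6 samples whose titles name G361, a human melanoma line, 3 labelled wild type with a control shRNA (Control sh) and 3 labelled DCAF1 knockdown with an shRNA against VprBP, the protein that DCAF1 encodes (VprBP sh). By the methods, the VprBP shRNA was delivered by a lentivirus and the cells were kept under puromycin selection, and 1 shRNA sequence against VprBP is given. Both groups carry the same cell line, cell type and source labels, and the comparison asks which genes differ in expression when VprBP is depleted.

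EMT is the process by which epithelial cells lose junctions and polarity and take on a migratory, mesenchymal state. Factors of the Snail, ZEB and Twist families bind E-boxes, short DNA motifs, and Snail and ZEB factors repress CDH1 there. E-cadherin (CDH1) gives way to N-cadherin (CDH2) in the classical form, while vimentin filaments (VIM) and fibronectin matrix (FN1) accumulate. In melanoma the factors are used differently from carcinomas, since melanocytes express SNAI2 and ZEB2, and a shift towards ZEB1 and TWIST1 accompanies loss of differentiation.

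The promoter windows of 3 markers that were called are shown first, as the regulatory sequence at the start of each gene. They are RefSeq windows on GRCh38.p14, each spanning 250 bases before and 50 bases after a transcription start, written 5′ to 3′ on the gene's strand. FN1 encodes fibronectin, and its window is chr2:215436019-215436318 on the minus strand. CDH2 encodes N-cadherin, and its window at the gene's outer start is chr18:28177081-28177380 on the minus strand. VIM encodes vimentin, and its window is chr10:17227991-17228290 on the plus strand. Capitals mark TGACGTCA, the cAMP response element.
FN1: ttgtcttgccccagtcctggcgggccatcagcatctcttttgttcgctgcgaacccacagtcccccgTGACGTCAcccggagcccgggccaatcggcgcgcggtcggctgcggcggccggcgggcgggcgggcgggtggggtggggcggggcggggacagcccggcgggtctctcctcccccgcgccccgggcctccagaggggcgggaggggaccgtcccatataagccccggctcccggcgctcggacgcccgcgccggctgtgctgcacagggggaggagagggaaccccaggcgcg
CDH2: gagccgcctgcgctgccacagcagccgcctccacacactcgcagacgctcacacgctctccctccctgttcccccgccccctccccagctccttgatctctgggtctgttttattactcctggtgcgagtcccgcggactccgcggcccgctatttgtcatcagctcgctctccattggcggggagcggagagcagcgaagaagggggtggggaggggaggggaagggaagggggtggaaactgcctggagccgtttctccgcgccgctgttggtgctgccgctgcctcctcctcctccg
VIM: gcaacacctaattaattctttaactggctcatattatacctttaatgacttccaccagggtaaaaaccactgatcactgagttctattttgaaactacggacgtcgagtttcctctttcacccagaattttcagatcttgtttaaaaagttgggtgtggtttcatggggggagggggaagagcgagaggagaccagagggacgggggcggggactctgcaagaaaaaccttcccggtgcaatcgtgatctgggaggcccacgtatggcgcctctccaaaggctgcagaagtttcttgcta
The FN1 window held 1 TGACGTCA, a palindrome that reads the same on both strands, 183 bases before the start. Among all 35116 RefSeq windows, 1.85% held this motif. The E-box CAGGTG, or CACCTG on the other strand, was found in none of the 3 windows, against 20.6% of all windows. The wider E-box CANNTG, which includes CAGGTG, was likewise found in none of the 3, against 68.7% of all windows. A second CDH2 window, at an inner start (chr18:28036592-28036891, minus strand), held 1 CANNTG 97 bases before that start. It also held 1 TGANTCA, with the letters TGAATCA, 102 bases before that start, and the matches overlap each other. The pattern TGANTCA allows any middle base and is looser than the AP-1 motif. TGANTCA, a palindrome apart from its middle base, was found in none of the 3 printed windows and in 7.71% of all windows. GC content was 76.7% in the FN1 window, 67.0% in the CDH2 window and 48.0% in the VIM window, with 38, 23 and 10 CpG dinucleotides. ZEB1 had 7 windows for its alternative starts, and 2 of them held CAGGTG or CACCTG. Windows were matched for 5 of the 10 genes, namely ZEB1, ZEB2, VIM, CDH2 and FN1. A match of letters is a description of the sequence and was not read as a bound site.

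Total estimated counts per sample ran from 18195949 to 26883948. DCAF1, the target of the shRNA, had 797, 971 and 838 normalized counts with Control sh and 760, 507 and 481 in VprBP sh. This difference did not reach the 2-fold cut (log2 fold change -0.58 ± 0.17 SE, adjusted p = 0.0125, edgeR). Replicates 2 and 3 resembled each other more than replicate 1 in both groups, with a chi-square per degree of freedom of 2.50 and 2.36 between them against 17.6 to 29.1 for the pairs with replicate 1. The labels name G361 as the line but LD611 as the source. These names differ, and which cells were sequenced was not tested. Of 10 melanocyte markers, 4 (TYR, DCT, SOX10 and SLC45A2) have no row in the table, and the other 6 summed to 236 to 290 normalized counts per sample with Control sh and 310 to 395 in VprBP sh. Of the 3 melanocyte markers tested, MITF and GPR143 had an adjusted p under 0.05 in edgeR and none passed the 2-fold cut. The 10 urothelial markers in the table summed to 107534 to 118994 normalized counts with Control sh and 25957 to 29199 in VprBP sh. Most of this sum came from the keratin genes KRT5 and KRT7, which are also on the epithelial marker list. Their means were 64989 and 35085 normalized counts with Control sh and 3488 and 21576 in VprBP sh. GATA3 and PPARG were called higher, 2 in all, and UPK1B, UPK2, TP63, KRT5 and KRT13 lower, 5 in all. Over all genes tested, 24.5% were called higher and 22.0% lower. Samples of the same group correlated at r = 0.985 to 0.994 across genes on the log2 scale, and samples of different groups at 0.652 to 0.660. Any other difference between the cultures of the groups cannot be told apart from the knockdown in this design, and whether both groups came from the same cells was not tested. The labels do not say that the samples came from separate cultures, so p-values measure the spread between these samples.

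A gene was called when its Benjamini-Hochberg adjusted p in edgeR's quasi-likelihood test, taken over all genes tested, was under 0.05 and its fold change was over 2. Of the 8 members tested, 5 were called. FN1, SNAI2, TWIST1 and CDH2 fell and VIM rose, while SNAI1, CDH1 and EPCAM were not called. SNAI2, TWIST1 and CDH2 had enough counts for the test only through Control sh, and VIM only through VprBP sh. A gene that enters the test in this way is likely to be called, so these calls are not independent of the filter. With at least 10 counts required in every sample, 1 member stayed called (FN1). Over all genes tested 46.4% were called, 24.5% higher and 22.0% lower in VprBP sh, so that calls were common in this comparison. At any fold, 7 of the 8 had an adjusted p under 0.05, against 76.4% of all genes tested. Normalized counts of the groups did not overlap for 7 of the 8 members and for 79.5% of all genes tested. With 3 samples in each group, the design cannot give an exact permutation p below 0.1, and the two-sided test gave 0.1 for each of those 7 and 0.2 for SNAI1.

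**Figure D1:**
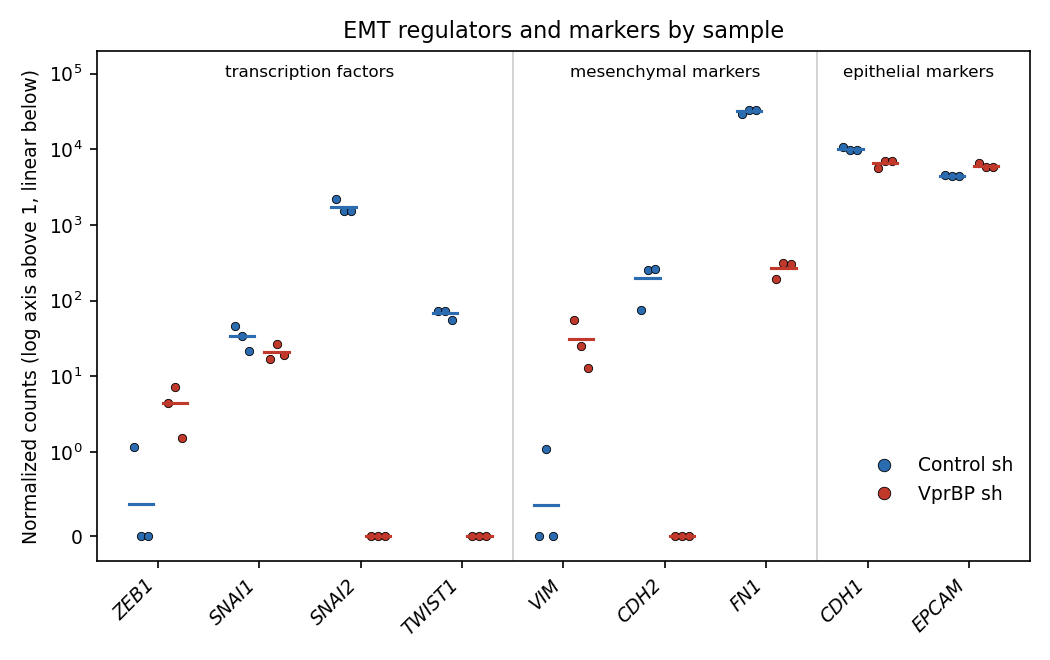
Normalized counts of the 9 measured genes in each of the 6 samples, on an axis that is logarithmic above 1 and linear below it, with points for samples and bars for group means of 3. SNAI2, TWIST1 and CDH2 lie at 0 in all VprBP sh samples, FN1 drops from a mean of 31901 to 271, and CDH1 and EPCAM range from 4406 to 10748 over the 6 samples.

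SNAI2 encodes Slug, a zinc finger repressor of CDH1 that is also needed in the melanocyte lineage. SNAI2 (ENSG00000019549.13; minus strand of chromosome 8, 48917598 to 48921740, hg38) had 1879, 1392 and 1630 counts in the Control sh samples and 0 counts in all 3 VprBP sh samples. In normalized counts these were 2178, 1513 and 1545, a mean of 1745 ± 375 (SD, n = 3). Control sh replicate 1 was the highest of the 3, and no VprBP sh sample held a single count. Against a floor of 3 counts per sample, SNAI2 was at least 597-fold lower in VprBP sh (adjusted p = 8.5e-08, edgeR). In these bulk samples, fewer cells that express a gene and less RNA of it per cell cannot be told apart.

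TWIST1, a basic helix-loop-helix factor, showed the same pattern at a lower level. TWIST1 (ENSG00000122691.13; minus strand of chromosome 7, 19020991 to 19117636) had 63, 68 and 59 counts with Control sh and 0 counts in all VprBP sh samples. The Control sh values were 73.0, 73.9 and 55.9 normalized counts, 67.6 ± 10.1 (SD, n = 3). The exact 95% Poisson interval of the lowest sample, 42.6 to 72.2, overlapped that of the highest, 57.4 to 93.7. TWIST1 was at least 23.1-fold lower in VprBP sh (adjusted p = 7.35e-06, edgeR). This bound is smaller than that of SNAI2 because the Control sh level is lower and both genes were at 0 counts with VprBP sh.

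SNAI1 encodes Snail, the founding member of the family that contains SNAI2. SNAI1 (ENSG00000124216.4; plus strand of chromosome 20, 49982980 to 49988886) had 46.4, 33.7 and 21.8 normalized counts with Control sh and 16.7, 27.0 and 19.2 in VprBP sh. The group means were 34.0 ± 12.3 and 21.0 ± 5.37 (SD, n = 3 each). The groups overlapped, with VprBP sh replicate 2 above Control sh replicate 3. The log2 fold change was -0.68 ± 0.36 (SE), which did not pass the test (adjusted p = 0.11, edgeR). It lay between -0.93 and -0.40 over all alternatives, with an adjusted p of 0.0456 to 0.342, and the lowest p came without Control sh replicate 3.

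ZEB1, a zinc finger and homeodomain repressor of epithelial genes, was near the limit of detection. ZEB1 (ENSG00000148516.23; plus strand of chromosome 10, 31318495 to 31529814) had 1, 0 and 0 counts with Control sh and 4, 7 and 2 counts with VprBP sh. The ratio of counts summed per group and scaled for depth was 11.7, with a 95% counting interval of 1.75 to 496. The highest VprBP sh sample, at 7.27 normalized counts, had a Poisson interval of 2.92 to 15.0. ZEB1 did not pass the filter on low counts. With no filter it was called higher, at a log2 fold change of 3.18 (adjusted p = 0.0355, edgeR), and it was not tested in the fits that keep the filter. ZEB1-AS1, whose gene lies on the opposite strand and overlaps ZEB1, had 16.2, 15.2 and 19.0 normalized counts with Control sh and 113, 62.3 and 62.9 in VprBP sh (log2 fold change 2.22 ± 0.33 SE, adjusted p = 0.000174, edgeR). Whether counting used the strand of the reads is not given in the sources used here, so reads of ZEB1 and ZEB1-AS1 may not have been kept apart. In GENCODE 44, SNAI2, TWIST1, VIM, CDH2 and CDH1 also overlap lncRNA genes on the opposite strand, and SNAI1 and FN1 overlap no gene.

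FN1 had the largest drop in counts of the 9 genes. FN1 (ENSG00000115414.21; minus strand of chromosome 2, 215360440 to 215436073) encodes fibronectin, a secreted glycoprotein that cells assemble into matrix. It had 29607, 33359 and 32738 normalized counts in Control sh, a mean of 31901 ± 2011 (SD, n = 3). In VprBP sh it had 193, 313 and 306 normalized counts, a mean of 271 ± 67.2. The groups were far apart, and VprBP sh replicate 1 was the lowest sample. FN1 fell by 6.87 ± 0.19 (SE) on the log2 scale (adjusted p = 3.15e-09, edgeR).

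CDH2 also went to 0 counts. CDH2 (ENSG00000170558.10; minus strand of chromosome 18, 27932879 to 28177946) had 65, 235 and 275 counts with Control sh and 0 counts in all VprBP sh samples. The Control sh samples themselves differed, at 75.3, 255 and 261 normalized counts. The Poisson interval of replicate 1, 58.1 to 96.0, lay below those of replicates 2 and 3, 224 to 290 and 231 to 293. Their mean was 197 ± 106 (SD, n = 3), and CDH2 was at least 67.5-fold lower in VprBP sh (adjusted p = 6.5e-05, edgeR).

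VIM moved in the other direction from FN1 and CDH2, at low counts. VIM (ENSG00000026025.16; plus strand of chromosome 10, 17228241 to 17237593) had 0, 1 and 0 counts with Control sh and 50, 24 and 17 counts with VprBP sh. In VprBP sh these were 55.8, 24.9 and 13.0 normalized counts, a mean of 31.3 ± 22.1 (SD, n = 3). The ratio of counts summed per group and scaled for depth was 81.6, with a 95% counting interval of 14.3 to 3260. VIM rose in edgeR's test (log2 fold change 6.0 ± 1.0 SE, adjusted p = 0.000372). The fitted value was 7.96 without Control sh replicate 2, the only Control sh sample with a count, and 5.30 without VprBP sh replicate 1, the highest sample, and VIM was called in both fits.

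Of the members, 3 were at 0 counts in all VprBP sh samples (SNAI2, TWIST1 and CDH2). Over all genes tested, 2.19% were at 0 counts in all VprBP sh samples while Control sh averaged 50 or more normalized counts, and 0.746% showed the reverse.

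**Figure D2:**
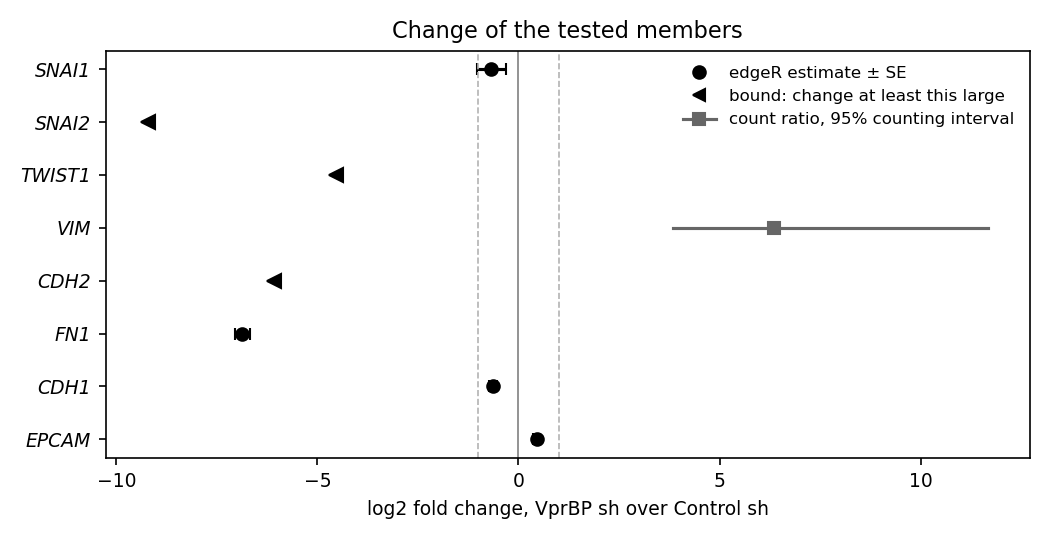
Log2 fold change of the 8 tested genes, VprBP sh over Control sh: circles are edgeR estimates with SE, triangles are bounds for genes at 0 counts with VprBP sh (the change is at least that large), the square is the VIM count ratio with its 95% counting interval, and dashed lines mark the 2-fold cut. SNAI1, CDH1 and EPCAM lie inside the cut, FN1, SNAI2, TWIST1 and CDH2 to the left of it and VIM to the right.

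CDH1 encodes E-cadherin, the homophilic adhesion molecule of epithelial junctions. CDH1 (ENSG00000039068.20; plus strand of chromosome 16, 68737292 to 68835537) had 10748, 9695 and 9906 normalized counts with Control sh and 5595, 6956 and 7078 in VprBP sh. The means were 10117 ± 557 and 6543 ± 823 (SD, n = 3 each), and every VprBP sh sample was below every Control sh sample. The log2 fold change of CDH1 was -0.63 ± 0.10 (SE, adjusted p = 0.000361, edgeR), smaller than the 2-fold cut, and it was not called under any alternative, where it ran from -0.75 to -0.42.

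EPCAM encodes an epithelial surface glycoprotein that carcinomas often express highly. EPCAM (ENSG00000119888.11; plus strand of chromosome 2, 47345158 to 47387601) had 4522, 4406 and 4464 normalized counts with Control sh and 6625, 5744 and 5870 in VprBP sh. The means were 4464 ± 57.8 and 6080 ± 477 (SD, n = 3 each), with no overlap. Its log2 fold change was 0.45 ± 0.08 (SE, adjusted p = 0.000718, edgeR), opposite in sign to that of CDH1 and likewise under the 2-fold cut. EPCAM ran from 0.32 to 0.66 over the alternatives. For comparison, the median log2 fold change over the 16756 genes was 0.08 with the scaling used here and 0.29 when libraries were scaled by their size alone.

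The balance of the cadherins was read within each sample. The log2 ratio of CDH1 to CDH2, with 1 added to each normalized count, was 7.14, 5.24 and 5.24 with Control sh and 12.45, 12.76 and 12.79 in VprBP sh. Every VprBP sh sample was above every Control sh sample. The means were 5.87 ± 1.09 and 12.67 ± 0.19 (SD, n = 3 each), a difference of 6.79 (two-sided exact permutation p = 0.1, the smallest that 3 against 3 allows). With 10 added in place of 1 the difference was 3.56, since CDH2 is at 0 in VprBP sh and the ratio there is set by CDH1 and the added constant. A ZEB1 to ZEB2 ratio was not computed, because ZEB2 was not analysed here.

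Levels were compared between genes as normalized counts per kb of merged exons, a length that joins all annotated transcripts of a gene. In Control sh the order was FN1 (1853 ± 117 per kb, SD, n = 3), EPCAM (1837 ± 23.8), CDH1 (1665 ± 91.7), SNAI2 (532 ± 114), TWIST1 (33.9 ± 5.07), CDH2 (23.0 ± 12.3), SNAI1 (19.9 ± 7.20), VIM and ZEB1. The sample ranges of FN1, 1720 to 1938 per kb, included all 3 EPCAM values and overlapped the CDH1 range of 1596 to 1769. EPCAM and CDH1 did not overlap in Control sh. The order depends on the merged length, which was 17.216 kb for FN1, 6.076 kb for CDH1 and 2.43 kb for EPCAM. CDH2, at 8.78 to 30.4 per kb, overlapped both TWIST1 (28.0 to 37.0) and SNAI1 (12.8 to 27.2), while TWIST1 lay above SNAI1 without overlap. In VprBP sh the order on the per kb scale was EPCAM (2502 ± 196), CDH1 (1077 ± 135), FN1 (15.7 ± 3.90), SNAI1 (12.3 ± 3.15), VIM (6.04 ± 4.27) and ZEB1 (0.511 ± 0.332), with SNAI2, TWIST1 and CDH2 at 0. In VprBP sh the SNAI1 range of 9.82 to 15.8 per kb overlapped those of FN1 (11.2 to 18.2) and VIM (2.52 to 10.8), while FN1 lay above VIM without overlap.

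**Figure D3:**
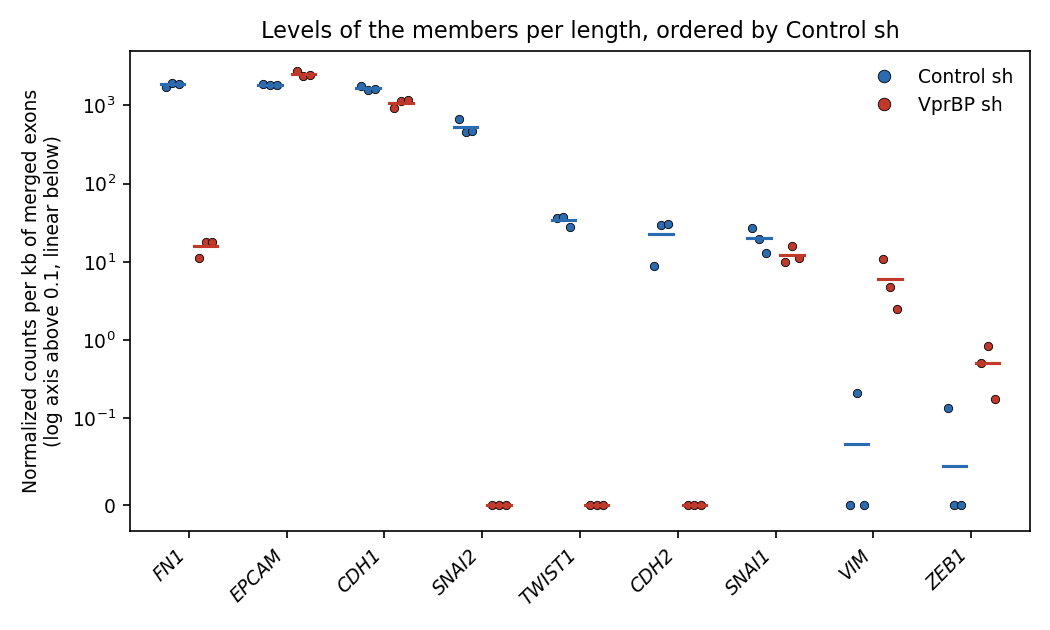
Normalized counts per kb of merged exons for the 9 genes in each sample, ordered by the Control sh mean, on an axis that is logarithmic above 0.1 and linear below it, with bars for means of 3. FN1, EPCAM and CDH1 share the top of the Control sh order, and in VprBP sh EPCAM and CDH1 lie above all other members.

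The relatives of the members did not all follow them. TWIST2, the paralog of TWIST1, had 0 counts in every Control sh sample and 631, 427 and 465 normalized counts with VprBP sh, and was at least 159-fold higher there (adjusted p = 3.64e-07, edgeR). TWIST1 and TWIST2 were thus each detected in 1 group only. SNAI3, named after its values were seen because it completes the Snail family, had 6.95, 14.1 and 12.3 normalized counts with Control sh and 24.6, 29.1 and 24.5 in VprBP sh (log2 fold change 1.20 ± 0.34 SE, adjusted p = 0.00962, edgeR). The Id proteins lack a DNA-binding region and bind E proteins, the partners of Twist factors. ID1 fell by 4.86 ± 0.20 (SE) on the log2 scale, from 21364 to 23800 normalized counts in the Control sh samples to 531 to 916 in VprBP sh. ID2 rose by 4.55 ± 0.25, from 8.70 to 15.2 normalized counts to 245 to 329. ID3, at a log2 fold change of -0.90 ± 0.22, and the E protein gene TCF3, at 0.58 ± 0.12, were not called. FOXC1, a forkhead factor, fell by 2.81 ± 0.20. Of 11 further EMT transcription factors tested, 5 were higher, 4 lower and 2 not called, against 24.5% higher and 22.0% lower over all genes tested. Their median log2 fold change was 0.58, against 0.08 over all genes tested.

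Of 11 further cadherins listed, 4 were in the table, and all 4 were tested. Of these, 3 were called lower and 1 was not called, against 22.0% lower and 24.5% higher over all genes tested. CDH3 encodes P-cadherin and its gene ends 9.8 kb from CDH1 on the same strand. CDH3 had 20142, 16671 and 16487 normalized counts with Control sh and 1172, 2177 and 2378 in VprBP sh, and fell by 3.22 ± 0.24 (SE) on the log2 scale (adjusted p = 1.45e-06, edgeR). CDH13, a cadherin with a lipid anchor in place of a cytoplasmic tail, had 2412, 1621 and 1653 normalized counts with Control sh and 0 counts with VprBP sh, at least 649-fold lower (adjusted p = 1.12e-07, edgeR). CDH5, the endothelial cadherin, had 394, 522 and 502 normalized counts with Control sh and 1, 2 and 3 counts in the VprBP sh samples (adjusted p = 1.02e-08, edgeR). CDH24 was not called, at a log2 fold change of 0.45 ± 0.17.

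**Figure D4:**
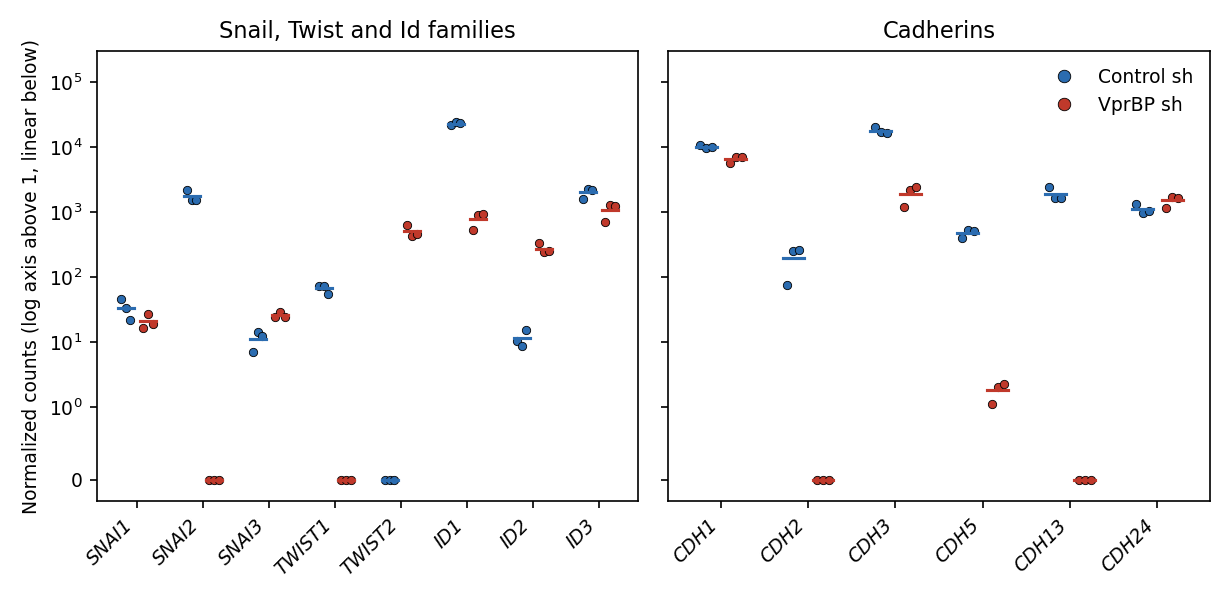
Normalized counts by sample for the Snail, Twist and Id families (left) and for 6 cadherins (right), on axes that are logarithmic above 1 and linear below it, with bars for means of 3. TWIST1 and TWIST2 each lie at 0 in one group, ID1 and ID2 separate in opposite directions, and CDH1 and CDH24 are the cadherins that differ by less than 2-fold between groups.

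The catenins that link cadherins to actin were read beside them. Alpha-catenin (CTNNA1), the actin-binding link, fell by 2.64 ± 0.08 (SE) on the log2 scale, from 10415 to 11132 normalized counts in Control sh to 1662 to 1746 in VprBP sh (adjusted p = 4.27e-09, edgeR). The p120 catenin gene CTNND1, at -0.80 ± 0.07, and plakoglobin (JUP), at -0.71 ± 0.11, were under the 2-fold cut. NECTIN3, a nectin of adherens junctions, went from 150 to 191 normalized counts to 0 counts, at least 57.9-fold lower. NECTIN4 rose by 1.96 ± 0.14. Of 10 genes of the cadherin-catenin list tested, 1 was called higher, 2 lower and 7 were not called, with a median of -0.52. The shares over all genes tested were 24.5% higher and 22.0% lower.

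Further mesenchymal markers were mostly lower. Of 24 tested, 20 were called lower, 1 higher and 3 were not called, against 22.0% lower and 24.5% higher over all genes tested. Their median log2 fold change was -4.51, or -4.06 with genes at 0 set to their bound. COL5A1, a collagen chain, had 5866, 4835 and 4565 normalized counts with Control sh and 0 counts with VprBP sh, at least 1741-fold lower. MYL9, a myosin light chain of contractile cells, was at least 741-fold lower. SPARC, a matrix glycoprotein, had 6472, 7094 and 7071 normalized counts with Control sh and 0, 0 and 1 counts with VprBP sh. AXL, a receptor tyrosine kinase, had 13366, 15135 and 15090 normalized counts with Control sh and 2, 0 and 3 counts with VprBP sh. CD44, at a log2 fold change of -0.17 ± 0.10, was not called. CCN2 was not called either, and its VprBP sh samples stood at 3029, 57.1 and 48.3 normalized counts around Control sh values of 533 to 627. The marker called higher, S100A4, a calcium-binding protein named after its values were seen, rose by 5.30 ± 0.17.

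Markers of other cell types were read out beside these genes. Of 10 fibroblast markers 6 were in the table, 5 were tested and 4 were lower, and their sum was 1000 to 1092 normalized counts with Control sh and 469 to 608 in VprBP sh. Most of this sum came from COL1A1, with means of 691 normalized counts with Control sh and 548 in VprBP sh. COL1A1 was not called (log2 fold change -0.33 ± 0.13 SE). COL3A1, DCN, THY1 and POSTN have no row in the table, and LUM was at 0 counts with VprBP sh. COL1A1, COL1A2, FAP and PDGFRB are also on the mesenchymal list, so 3 of the 4 lower calls are counted there too. Of 8 endothelial and blood markers 5 were in the table and 4 were lower, with sums of 1352 to 1746 and 30.1 to 45.2 normalized counts. PTPRC, CD3E and HBB have no row in the table. For comparison, 22.0% of all genes tested were called lower. The part of these cell types in the results was not tested.

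Fibronectin receptors and filament partners of vimentin were also read out. ITGA5 and ITGB1 encode the chains of the main fibronectin receptor. ITGA5 fell by 4.35 ± 0.17 (SE) on the log2 scale, from 5616 to 7834 normalized counts to 258 to 339, and ITGB1 fell by 2.76 ± 0.11, from 25222 to 31349 to 3904 to 4276. ITGB3 fell by 3.86 ± 0.57, with Control sh replicate 1 at 1128 normalized counts and replicates 2 and 3 at 326 and 343. ITGAV, which pairs with ITGB3, was not called (0.03 ± 0.10). NES, which encodes nestin, an intermediate filament protein that assembles with vimentin, fell by 5.05 ± 0.41. The gene called higher, SYNM, named after its values were seen, rose by 1.92 ± 0.20. Of 9 genes in this list, 7 were lower, 1 higher and 1 not called, with a median of -2.11. Calls over all genes tested were 24.5% higher and 22.0% lower.

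Epithelial genes other than CDH1 and EPCAM were called in both directions, at shares near those over all genes tested (24.5% higher and 22.0% lower). Of 33 epithelial markers tested, 9 were called higher, 9 lower and 15 were not called, and the median log2 fold change was 0.06. CLDN3, a tight junction claudin, rose by 8.38 ± 0.37 (SE), from 2.84 to 19.7 normalized counts in Control sh to 2469 to 4075 in VprBP sh. CLDN1, another claudin, fell by 3.36 ± 0.11. PKP1, a desmosomal plaque protein, fell by 10.98 ± 0.25, and the basal keratin gene KRT5 fell by 4.22 ± 0.26. KRT7 (-0.70 ± 0.12) and SPINT2 (-0.27 ± 0.10) were not called. Among 13 gatekeepers of the epithelial state tested, mostly transcription factors and splicing regulators that maintain it, 4 were higher, 3 lower and 6 not called, with a median of 0.04. The 3 lower calls include CDS1, a lipid synthesis enzyme named after its values were seen. GRHL1 rose by 3.32 ± 0.20 and FOXA1 by 2.02 ± 0.12, while KLF5 fell by 2.23 ± 0.09 and OVOL1 by 1.72 ± 0.30. EHF (0.15 ± 0.10) and ELF3 (-0.37 ± 0.16) were not called.

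Ligands, receptors and signal carriers of pathways that act in EMT gave 4 calls higher and 8 lower among 17 tested, with a median of -0.50. Over all genes tested the shares were 24.5% higher and 22.0% lower. The TGF-beta ligand genes, named after their values were seen, went both ways. TGFB1 fell by 6.11 ± 0.24 (SE), while TGFB2 rose by 3.35 ± 0.13 and TGFB3 by 3.85 ± 0.26. The list includes BMP7, called higher and known for opposing TGF-beta, and the inhibitory SMAD7, not called, both named after their values were seen. SMAD4, the common partner of the SMAD factors that carry TGF-beta signals, had 1079, 1121 and 1144 normalized counts with Control sh and 5.58, 3.12 and 3.07 in VprBP sh, and fell by 8.15 ± 0.19 (SE) on the log2 scale. INHBA, which encodes an activin chain, fell by 7.95 ± 0.45. WNT5A, a noncanonical Wnt ligand, had 0 counts with Control sh and 308, 363 and 352 normalized counts with VprBP sh, at least 107-fold higher. The receptor gene TGFBR1 (0.10 ± 0.10) and SMAD2 (0.77 ± 0.10) were not called. These lists share genes, AXL, ITGA5, KRT5, JUP and CDH3 among them, and their counts are not independent.

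**Figure D5:**
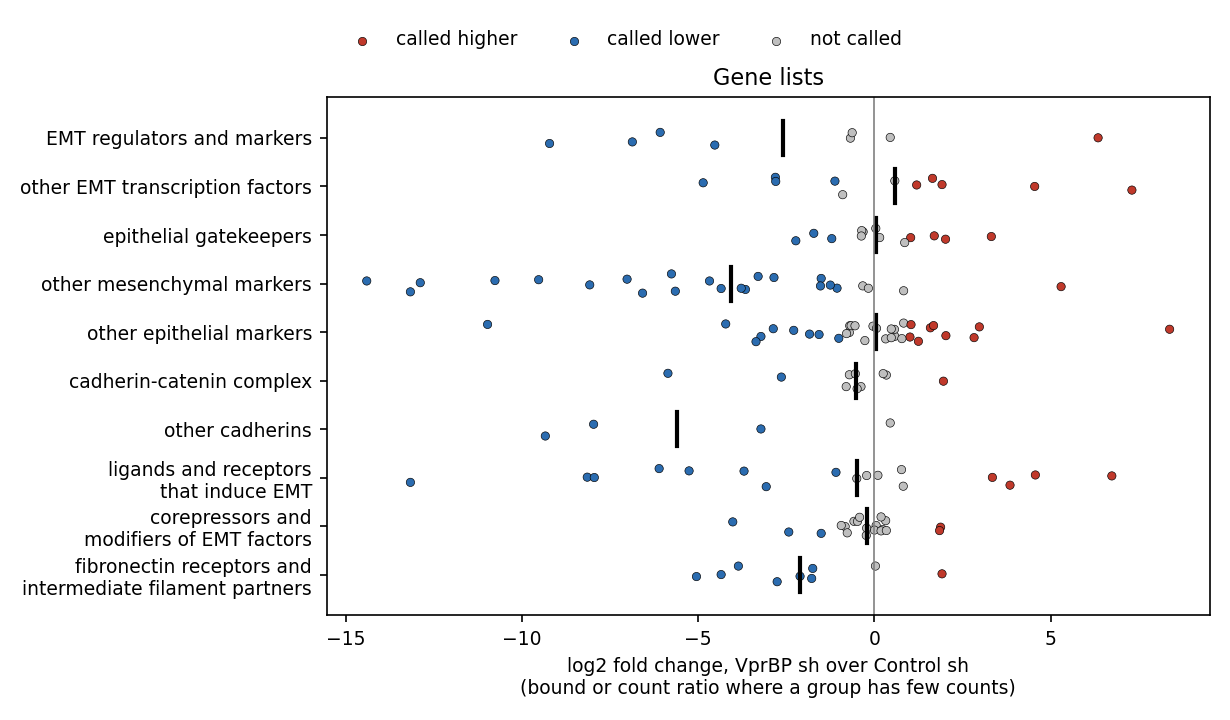
Log2 fold changes, VprBP sh over Control sh, of the tested genes of each list, with 1 point per gene (vertical spread is for display), bounds or count ratios where a group has few counts, and a black bar at each list's median. Mesenchymal markers lie mostly to the left, with a median of -4.06, while epithelial markers spread around 0.06.

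The genes next to the members were compared with them. HDAC9, the protein-coding neighbour of TWIST1 at 18.6 kb, fell by 3.88 ± 0.36 (SE) on the log2 scale, from 279 to 551 normalized counts to 16.9 to 38.0. ATIC, 10.7 kb from FN1, rose by 1.54 ± 0.11, opposite to FN1. TRDMT1, 26.2 kb from VIM, fell by 1.90 ± 0.30, opposite to VIM. Around CDH1, which was not called, CDH3 fell and TANGO6, 8.0 kb on the other side, fell by 1.15 ± 0.14. EPCAM-DT, a divergent transcript beside EPCAM, rose by 2.41 ± 0.56 at 0.948 to 4.35 normalized counts with Control sh and 9.97 to 14.5 in VprBP sh. RNF114 (-0.31 ± 0.08) and UBE2V1 (-0.60 ± 0.08) beside SNAI1 and ARHGAP12 (-0.13 ± 0.10) beside ZEB1 were not called. GTDC1, the neighbour of ZEB2, was not called (0.24 ± 0.11).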

How the data were processed

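RNA-seq of 3 Control sh and 3 VprBP sh samples was analysed, with groups taken from the sample titles. Per the methods, the authors aligned single-end reads to hg38 with STAR and quantified them per gene, and the submitters' notes name Partek. The deposited values are estimated counts (59.4% whole), neither normalized nor pooled, with totals of 18195949 to 26883948, and each gene sums to at least 10. The methods name GENCODE 29. Coordinates are those of the table and equal those of GENCODE 44 for the 9 measured genes, with the last base 1 below the table's end value. Overlaps and exon lengths came from GENCODE 44. The labels name a SMARTER kit and the methods a strand-specific KAPA kit.

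Here the estimated counts were rounded, although the design had been written for counts, scaled by upper quartile factors (quantile 0.75), filtered (edgeR's filter, minimum 10) and tested with edgeR 4.0.16 in R 4.3.3 by the quasi-likelihood test on all 6 samples, standing in for Partek's Gene Specific Algorithm. A call needed a Benjamini-Hochberg adjusted p under 0.05 and a fold over 2. The SE of a log2 fold change is approximate. It was back-calculated from the quasi-likelihood F statistic and is not a standard error reported by edgeR. Genes at 0 counts throughout a group were compared with 3 counts in a sample as the floor (2.30 to 3.48 normalized counts). Intervals and floors cover counting error only. On simulated counts for this comparison and 16756 genes, edgeR recovered 100% of 200 genes changed by 2 on the log2 scale, with 2 false calls, and DESeq2 1.42.0 recovered 100% with 0. The simulation gave every gene the same dispersion and changed few genes. It therefore does not show how scaling and false calls behave where 46.4% of genes were called. The members and gene lists were chosen with earlier results of these data known. Genes beside the members were named by rule: up to 4 called genes per list with the largest change, groups that do not overlap and a higher mean of 100 normalized counts or more, up to 2 of the most abundant genes not called, and neighbours of members, of which 1 is not reported here. Promoter windows were from RefSeq; TGACGTCA and TGANTCA were searched in addition to the E-boxes.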

Additional observations from a re-analysis of the deposited data

How the results depend on the processing

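The 5 calls among the members (FN1, SNAI2, TWIST1 and CDH2 lower, VIM higher) were also 5 with TMM factors, library size alone, DESeq2, replicates 2 and 3 summed into 1 sample and without any single replicate, and 6 with no filter on low counts, where ZEB1 was added. Requiring at least 10 counts in every sample removes genes at 0 by construction. It left 1 member called (FN1), 4690 calls over all genes against 7778, and 63 of 99 list calls. Under it, other EMT transcription factors had 2 calls higher, other mesenchymal markers 8 lower, the cadherin-catenin list 1 lower, other cadherins 1 lower, ligands and receptors 2 higher and 5 lower, urothelial markers 1 higher and 2 lower, and fibroblast markers and endothelial and blood markers 0 lower. Among melanocyte markers, 1 was called higher with library size alone and 1 lower with no filter, against 0 and 0. The CDH1 to CDH2 difference was 3.56 with 10 added in place of 1, against 6.79, and 6.48 to 7.43 without single replicates. Leaving out a replicate gave 7949 to 8142 calls over all genes and 95 to 98 in the lists. With the replicate number as a block there were 7686 calls over all genes, 5 among the members and 98 in the lists, and no member's call changed. Deviations of same-numbered samples correlated at -0.144, -0.0282 and -0.107, so no shared deviation by number was seen. Whether same-numbered samples were handled together cannot be told from these values. No member changed direction under any alternative. Depth limits ZEB1 and VIM, which had at most 1 count in a Control sh sample.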

Other observations

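Corepressors and modifiers of EMT factors, the enzymes that Snail, ZEB and Twist proteins recruit or that act on them, were mostly not called. Of 20 tested, 2 were higher, 3 lower and 15 not called, with a median log2 fold change of -0.22. Over all genes tested 46.4% were called, 24.5% higher and 22.0% lower. EZH2, the methyltransferase of Polycomb complex, rose by 1.88 ± 0.13 (SE), from 596 to 665 normalized counts in Control sh to 2044 to 2773 in VprBP sh, while SUZ12, a subunit of the same complex, fell by 1.51 ± 0.10, from 3186 to 3852 to 1152 to 1381. LOXL2, a lysyl oxidase that acts on Snail, fell by 4.02 ± 0.21 and the LIM protein gene AJUBA fell by 2.43 ± 0.08. The kinase subunit gene CSNK2A1 (-0.77 ± 0.09) and the demethylase gene KDM1A (0.32 ± 0.10) were not called.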
